A study of Rattus norvegicus with 69 samples.

Results

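A group of 52 rat genes, each represented by 1 probe set, had its highest signal in seminiferous tubules dissected at stages VIIc.d, VIII or IX-XI and a clearly lower signal in every preparation of isolated testis cells. The genes were chosen on the group means of these same arrays: the peak stage mean had to be at least 200, at least 4 times the lowest stage mean and at least 3 times the highest of the 4 isolated cell means, with all means floored at 20. Of 31042 probe sets, 20826 carried exactly 1 gene symbol, 311 met the stage criteria and 58 also met the one on isolated cells. Another 6 were then left out by name (Tnp1, Tnp2, Prm2, Oxct2b, Gfra1 and Rdh10), which left 52 genes of the 14217 represented. The stage peak and the gap to the isolated cells are therefore descriptions of how the genes were picked, and any count from the stage or isolated cell contrasts is given only as a description. A working description of the group as absent from isolated cells is not used here. The highest isolated cell mean was 200 or more for 32 genes, and above 43.7, the median of the table, for all 52. That median is not a detection limit, and Syne3, at 45.1, was only just above it. No share over all probe sets was taken for these counts.

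RNA was measured on Affymetrix arrays in 69 samples of Sprague Dawley rats, 1 array per sample, with whole testis, tubules at defined stages of the epithelial cycle and isolated cells. Whole testis gave 5 samples, with no age stated in the labels. Tubules were microdissected under transillumination into 10 stage groups with 5 samples each (4 at stage IV-V, where the labels list replicates 2 to 5), and each sample pooled 25 segments from each of 2 rats aged 55 to 60 days. Isolated cells were Sertoli cells (4 samples, about 85% pure), pachytene spermatocytes (4) and round spermatids (4), for which the animals were 55 to 60 days old. A mixture of spermatogonia and early spermatocytes (3) was prepared from animals of 18 to 20 days. The germ cells were separated by centrifugal elutriation of enzyme-dispersed testes and were stated to be 85% to 95% pure. For the group called IX-XI the sample titles and the dissection protocol say IX-XI but the source names say IX-XII, so some stage XII tubule may be included. No isolated preparation of elongating or late spermatids was among the samples.

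In the rat, a haploid round spermatid reshapes into a sperm cell over a long period in which its nucleus condenses, its flagellum and acrosome are completed and most of its cytoplasm is shed as residual bodies. Round spermatids start to elongate at about the time that the oldest spermatids are released into the lumen, which happens at stage VIII, and from stage IX on the tubule holds a single generation of spermatids, now elongating. Transcription stops as the chromatin condenses, and many messages are stored for later translation. In dissected tubules, a low signal of a gene can reflect few cells that carry its RNA or little RNA per cell, and these cannot be told apart here.

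Promoter sequences were held for 45 of the 52 genes and were taken from RefSeq, assembly GRCr8. The 250 bases before the annotated start are shown for 5 genes with an entry: P3r3urf, Garin4 and Abhd2, which had the highest peak mean of those with an entry at IX-XI, VIII and VIIc.d, and Leng1 and Klc3 from the 5 with the largest gap to the isolated cells, 5′ to 3′ on the strand of the gene. Capitals mark TGACG or its reverse complement CGTCA, which is one arm of the element TGACGTCA bound by the spermatid activator CREM.
P3r3urf (IX-XI peak, plus strand, chr5:134893321-134893570): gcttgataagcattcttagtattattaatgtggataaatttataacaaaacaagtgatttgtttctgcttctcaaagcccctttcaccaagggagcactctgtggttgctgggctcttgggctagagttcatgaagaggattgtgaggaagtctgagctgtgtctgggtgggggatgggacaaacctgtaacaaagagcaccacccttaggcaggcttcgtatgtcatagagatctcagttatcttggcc
Klc3 (IX-XI peak, minus strand, chr1:88183423-88183672): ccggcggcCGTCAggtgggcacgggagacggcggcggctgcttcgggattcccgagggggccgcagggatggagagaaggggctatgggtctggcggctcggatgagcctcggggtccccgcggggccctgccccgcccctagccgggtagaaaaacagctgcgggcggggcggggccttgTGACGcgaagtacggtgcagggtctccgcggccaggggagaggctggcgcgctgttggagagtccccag
Garin4 (VIII peak, minus strand, chr13:105276288-105276537): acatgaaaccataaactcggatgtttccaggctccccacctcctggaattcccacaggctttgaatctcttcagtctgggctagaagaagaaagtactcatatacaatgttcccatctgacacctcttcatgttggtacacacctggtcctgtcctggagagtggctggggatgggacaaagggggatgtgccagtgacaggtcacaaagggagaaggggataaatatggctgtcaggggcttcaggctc
Leng1 (VIII peak, plus strand, chr1:74467093-74467342): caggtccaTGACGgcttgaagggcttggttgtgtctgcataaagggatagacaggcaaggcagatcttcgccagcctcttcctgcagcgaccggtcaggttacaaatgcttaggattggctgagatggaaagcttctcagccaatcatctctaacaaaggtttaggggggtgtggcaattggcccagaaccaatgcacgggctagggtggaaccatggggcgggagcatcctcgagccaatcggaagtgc
Abhd2 (VIIc.d peak, plus strand, chr1:142626498-142626747): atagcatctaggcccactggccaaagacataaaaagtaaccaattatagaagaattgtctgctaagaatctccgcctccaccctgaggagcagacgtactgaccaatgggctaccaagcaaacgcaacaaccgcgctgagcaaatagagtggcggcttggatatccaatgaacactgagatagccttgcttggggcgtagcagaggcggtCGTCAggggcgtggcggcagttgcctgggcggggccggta

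The window searched ran from 250 bases before to 50 after the start. TGACGTCA, read on both strands, was in 0 of the 45 windows, against 1.91% of all 27457 windows of the annotation and 3.10% of the 10463 windows of tested genes. The shorter TGACG, also read on both strands and contained in the full element, was in 11 of the 45 (24.4%), against 22.0% of all windows and 30.5% of those of tested genes. TATAAA, read on the strand of the gene, was in 0 of the 45, against 9.08% of all windows and 5.25% of those of tested genes. Klc3 has TGACG or CGTCA at 242 and 69 bases before the start, Leng1 at 242 and Abhd2 at 40, while the printed stretches of P3r3urf and Garin4 hold neither. Ccdc179, Smim23, Prkar2a, Ndrg1, Pcbp4, Cc2d1a and Top1mt had no entry.

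Values are MAS5 signals on a linear scale, scaled by the authors so that the trimmed mean of each array is 100, and means are given with the SD over the samples of a group. Signals of different probe sets depend on their probes, so they do not rank genes by the amount of RNA. Arrays had median signals of 30.9 to 58.2. Some libraries stood apart. At stage IX-XI, replicates 2 and 3 had actin 3' to 5' signal ratios of 2.65 and 2.72, against 1.61 to 1.81 in the other 3, and at stage VIIc.d replicates 2 and 3 had 2.86 and 2.71, against 1.76 to 1.94. Such a ratio goes up when RNA is degraded. In whole testis, replicates 2 and 4 lay together on 1 side of replicates 1, 3 and 5, below them for 18.4% and above them for 21.8% of the 24046 probe sets tested. Round spermatids had the highest GAPDH 3' to 5' ratio of all groups, 2.13 ± 0.306 (n = 4), against 1.06 to 1.54 as means of the other groups. Their actin ratio, 1.90 ± 0.0962, was not high, with means of 1.49 to 2.35 in the other groups.

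Peaks fell at stage IX-XI for 23 genes, at VIII for 21 and at VIIc.d for 8. The peak stage mean was 4.14 to 110 times the lowest stage mean, with a median of 12.1. The lowest stage was II-III, IV-V or VI for 44 genes, and 4 lay on the X chromosome (H2al2l, Smpx, H2ap and Tex13c3). In 8 genes every peak stage sample lay above every sample of the other 9 stages, namely Smpx, C13h1orf21 and H2al2l at IX-XI, Garin4, Lhpp and C5h6orf163 at VIII, and Abhd2 and Eif4g1 at VIIc.d. That was so for 1.04% of all tested probe sets, and the rule had used these samples, so nothing is read from the comparison. In the other 44 genes the peak stage overlapped at least 1 other stage, and the named peak is the highest of neighbouring means.

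**Figure D1:**
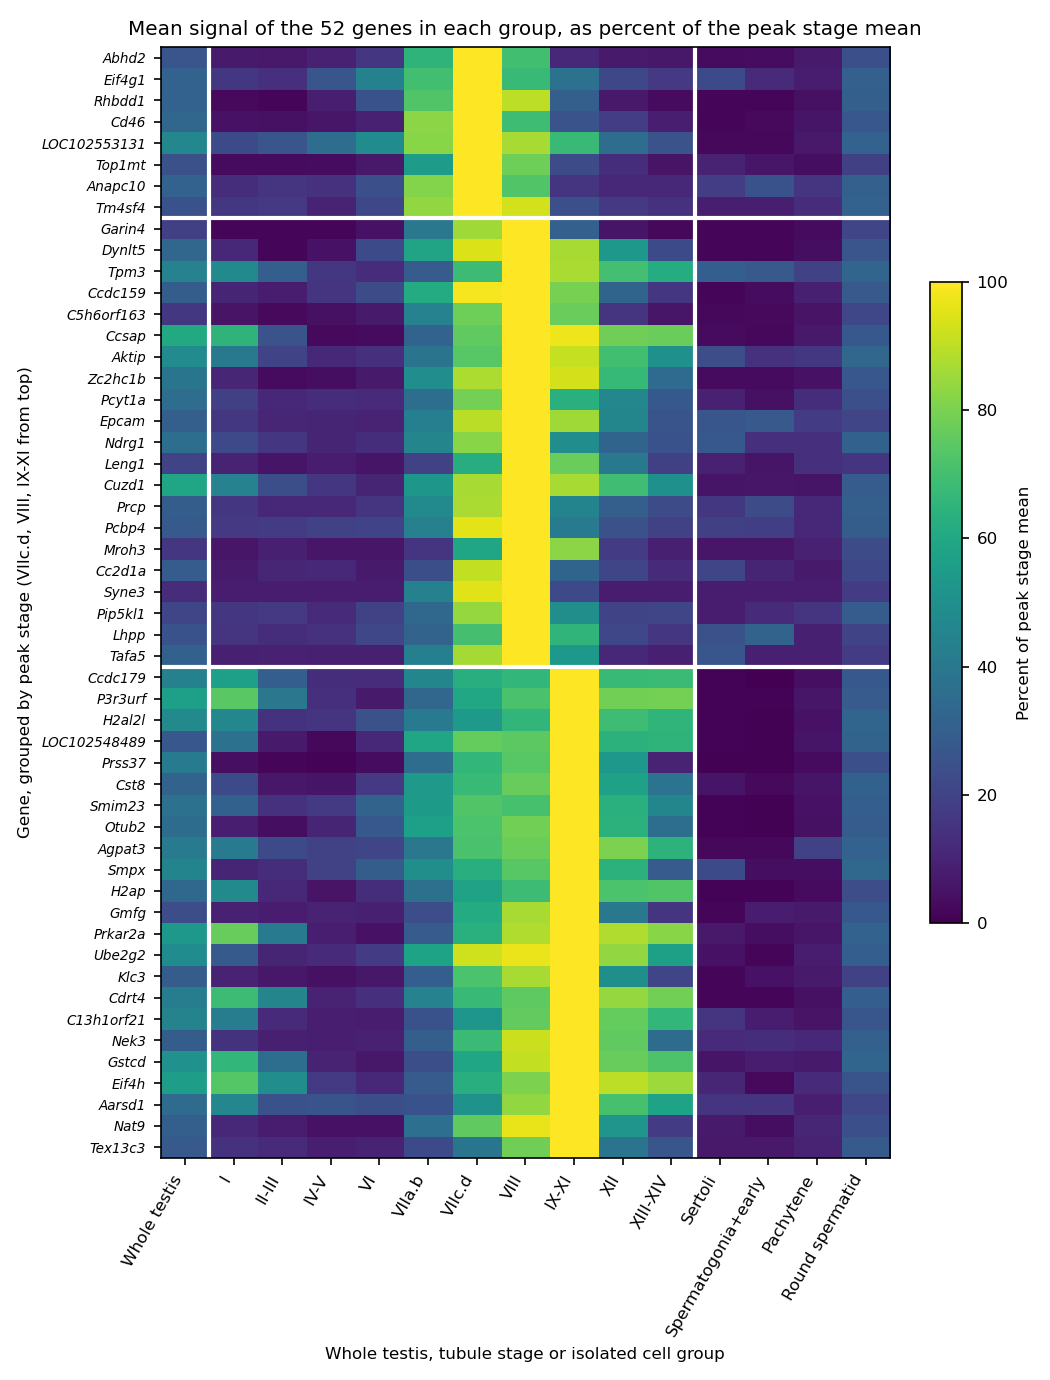
Mean signal of each of the 52 genes (rows, grouped by peak stage) in whole testis, the 10 tubule stages and the 4 isolated cell groups (columns), as percent of the gene's peak stage mean after flooring at 20. The VIIc.d genes fade by IX-XI, the IX-XI genes carry on into XII, XIII-XIV and often I, and round spermatids form the brightest isolated column.

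The groups, formed by peak stage on these same means, differed in their signal at the other stages. Genes that peaked at VIIc.d had a median of 77.1% of their peak at VIIa.b, 75.3% at VIII, 24.9% at IX-XI and 9.85% at XIII-XIV. Genes that peaked at VIII stood at 43.1% at VIIa.b, 85.7% at VIIc.d, 77.0% at IX-XI, 32.2% at XII and 21.0% at XIII-XIV. Genes that peaked at IX-XI had 36.5% at VIIa.b, 77.5% at VIII, 57.9% at XIII-XIV and 37.7% at I, then 9.84% at IV-V. At XIII-XIV the mean was at least 50% of the peak in 0 of the 8, 4 of the 21 and 13 of the 23 genes. XIII-XIV comes sooner after a later peak, so these counts do not compare how long the signal lasted. The IX-XI genes varied among themselves at XIII-XIV, where Prss37 had 9.73% of its peak left and Eif4h had 85.3%.

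Among genes of the acrosome, the sperm surface and secreted proteins, Prss37 had the widest swing over the cycle of all 52. Prss37 encodes an inactive protease-like protein that mouse sperm need for fertilization. Its signal at IX-XI was 3184, 5171, 5641, 3926 and 4405 in the 5 samples, and at IV-V it was 49.1, 12.2, 50.7 and 50.9, a ratio of 110. All IX-XI samples were far above all IV-V samples, and the signal fell to 434 ± 179 at XIII-XIV. Garin4 belongs to a family of Golgi-associated RAB2 interactors, several of which act in acrosome formation in the mouse. It had 1439, 1503, 1586, 1520 and 1433 at VIII. Stages I, II-III and IV-V were at or near the floor of 20, with means of 22.2, 19.1 and 15.9. Garin4 was down to 461 ± 30.0 at IX-XI, so its signal spanned only a short stretch of the cycle.

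Cd46, for a complement regulator that lies on the inner acrosomal membrane in rodents, had 1549, 1030, 1044, 1303 and 1386 at VIIc.d. The mean there was 22.9 times the II-III mean of 55.2 ± 11.6. Its VIIa.b mean of 1043 came close to the peak, within the spread of the VIIc.d samples. Cst8, a cystatin-related inhibitor named for epididymis and germ cells, averaged 3999 ± 564 at IX-XI. The others of this group peaked at VIII at 642 ± 90.4 (Epcam, a cell adhesion protein), 349 ± 60.7 (Cuzd1, a CUB domain protein), 342 ± 30.4 (Prcp, a lysosomal carboxypeptidase) and 223 ± 23.7 (Tafa5, a small secreted protein), or at VIIc.d at 234 ± 56.2 (Tm4sf4, a tetraspan membrane protein).

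**Figure D2:**
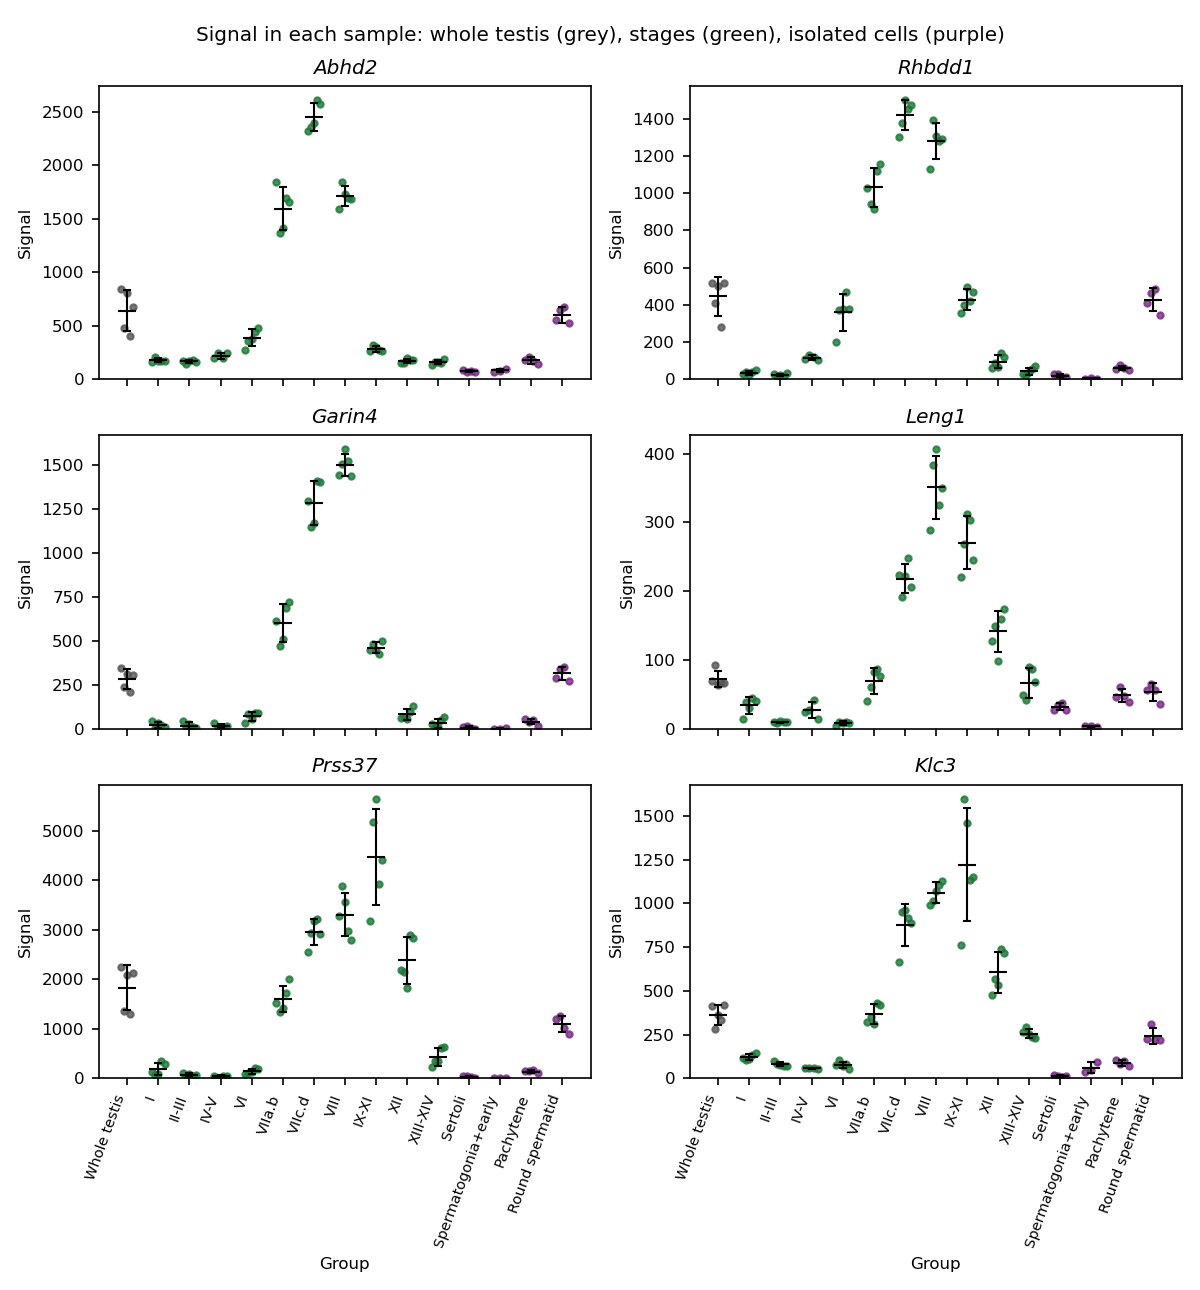
Signal of 6 genes in each sample (points; horizontal bar and whiskers, mean ± SD) of whole testis (grey), the 10 stages (green) and the 4 isolated cell groups (purple), each panel on its own linear axis from 0. Abhd2 and Rhbdd1 peak at VIIc.d, Garin4 and Leng1 at VIII, Prss37 and Klc3 at IX-XI, and in each the round spermatid samples lie far below the peak.

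Genes of lipid metabolism peaked at all 3 stage groups. Abhd2 encodes a monoacylglycerol lipase that human sperm use to respond to progesterone. It had 2320, 2357, 2398, 2611 and 2574 at VIIc.d. The samples at VIII, from 1589 to 1846, were all lower, and at IX-XI the mean was 285 ± 24.9. Its lowest stage mean was 159 ± 19.4 at XIII-XIV, so this gene went through a narrow window around stage VII. Agpat3, for an acyltransferase of phospholipid synthesis, had 2830 ± 341 at IX-XI. Pcyt1a, for the rate-limiting enzyme of phosphatidylcholine synthesis, had 688 ± 120 at VIII. Pip5kl1, a kinase-like relative of the phosphatidylinositol phosphate kinases, had 246 ± 43.6 at VIII.

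Of the cytoskeletal and flagellar genes, 4 peaked at VIII and 2 at IX-XI. Dynlt5, a dynein light chain of the Tctex type, had 1151, 1484, 1397, 1462 and 1539 at VIII and 23.6 ± 23.8 at II-III. Tpm3, a tropomyosin, had 1299, 1307, 1439, 1143 and 1319 at VIII and 165 ± 15.4 at VI. The ratio of peak to lowest stage was thus 59.5 in Dynlt5 and 7.87 in Tpm3. Klc3 encodes a kinesin light chain that binds outer dense fibres and mitochondria in rat spermatids. Its IX-XI samples read 761, 1597, 1457, 1134 and 1152, the first of them lower than any sample at VIII. Syne3, or nesprin-3, a linker of the nuclear envelope to intermediate filaments, had 228, 265, 245, 266 and 305 at VIII and under 10 at I and at XIII-XIV. Ccsap, a centriole and spindle protein, averaged 987 ± 64.3 at VIII and 962 ± 51.2 at IX-XI, which do not differ beyond their spread. Gmfg, a regulator of branched actin, averaged 2079 ± 353 at IX-XI.

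The 2 genes for H2A histone variants both peaked at IX-XI and both lie on the X chromosome. H2al2l had 5043, 6193, 6197, 4331 and 4596 there and 767 ± 157 at II-III. H2ap averaged 2166 ± 461 at IX-XI and 113 ± 10.1 at IV-V. Variants of this family have near-identical copies, so the probes may read more than 1 gene.

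Ubiquitin and proteolysis genes were spread over the 3 peaks. Rhbdd1, a rhomboid protease of the endoplasmic reticulum, had 1300, 1376, 1499, 1450 and 1471 at VIIc.d. Stage VIII was next with 1279 ± 94.5, and II-III was lowest with 24.0 ± 7.01, a ratio of 59.1. Otub2, a deubiquitinating enzyme, averaged 2864 ± 509 and Ube2g2, a ubiquitin-conjugating enzyme of protein quality control, 1481 ± 81.8, both at IX-XI. Aktip, which resembles ubiquitin-conjugating enzymes without being active as one, had 799, 917, 798, 793 and 869 at VIII. Anapc10, a subunit of the anaphase-promoting complex, averaged 340 ± 36.9 at VIIc.d.

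Among translation and RNA-binding genes, Eif4g1, the scaffold of the cap-binding complex, had 1658, 2188, 2382, 1786 and 1936 at VIIc.d. Its stages VIIa.b and VIII followed with 1387 ± 111 and 1347 ± 160. Eif4h, a cofactor of the initiation helicase, averaged 845 ± 54.6 at IX-XI and was still at 720.5 ± 80.8 at XIII-XIV. Aarsd1, an editing protein for mischarged alanyl-tRNA, averaged 613 ± 112 at IX-XI, and Pcbp4, a poly(rC)-binding protein, 335 ± 24.2 at VIII.

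Of the signalling genes, Prkar2a, a regulatory subunit of protein kinase A that anchors the kinase in the flagellum, had 1552, 1713, 1760, 1584 and 1606 at IX-XI. It stayed high through XIII-XIV (1350 ± 103) and I (1261 ± 58.3) and was lowest at VI (82.1 ± 15.4). Nek3, a NIMA-related kinase, averaged 926 ± 61.8 at IX-XI. At VIII, Ndrg1, a stress-induced protein, averaged 376 ± 64.6, Cc2d1a, a signalling scaffold, 284 ± 59.1, and Lhpp, a phosphatase, 232 ± 8.21.

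No role is stated for the other 17 genes. Of these, Ccdc179 had 4350, 8135, 7466, 5205 and 5244 at IX-XI and 784 ± 177 at VI. P3r3urf had 4527, 6459, 6495, 4350 and 4913 at IX-XI and 394 ± 29.6 at VI. In both genes the samples of replicates 2 and 3 were the 2 highest. LOC102548489 had 4332, 5629, 5396, 3589 and 3625 at IX-XI, 45.1 times its IV-V mean of 100.1 ± 39.4. Ccdc159 had 1076, 1262, 1121, 1024 and 983 at VIII, and its VIIc.d mean of 1078 was the same within the spread. Leng1 had 289, 383, 406, 326 and 350 at VIII and was near 9.62 at II-III and 8.32 at VI, both below the floor. Top1mt, which encodes a mitochondrial topoisomerase, had 595, 644, 665, 696 and 794 at VIIc.d and was near the floor at I and II-III. Smpx, first described as a small muscle protein, had 2041, 2580, 2657, 2040 and 2205 at IX-XI. The remaining genes were Smim23, Cdrt4, C13h1orf21, Gstcd, Nat9 and Tex13c3, which peaked at IX-XI with means of 289 to 3582, C5h6orf163, Zc2hc1b and Mroh3, which peaked at VIII with means of 324 to 989, and LOC102553131, which peaked at VIIc.d with 979 ± 63.8.

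Replicate differences within stage IX-XI ran through many of its genes. Replicates 2 and 3 were the 2 highest of the 5 samples in 18 of the 23 genes that peaked there, against 15.5% of all tested probe sets. The rule had used these samples, so genes high in them passed more easily and nothing is read from the share. Relative to the stage mean, the median of the 23 genes was 0.887, 1.17, 1.15, 0.908 and 0.930 in replicates 1 to 5. The chromatin genes Tnp1, Tnp2, Prm2 and Hils1, which met the stage criteria with a peak at IX-XI but are not among the 52, had medians of 0.722, 1.43, 1.43, 0.631 and 0.754. These are the 2 libraries with the high actin ratio, and the part of RNA quality in this was not tested. Without replicates 2 and 3 at IX-XI and at VIIc.d, 42 genes met the rule, 40 of them among the 52.

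**Figure D3:**
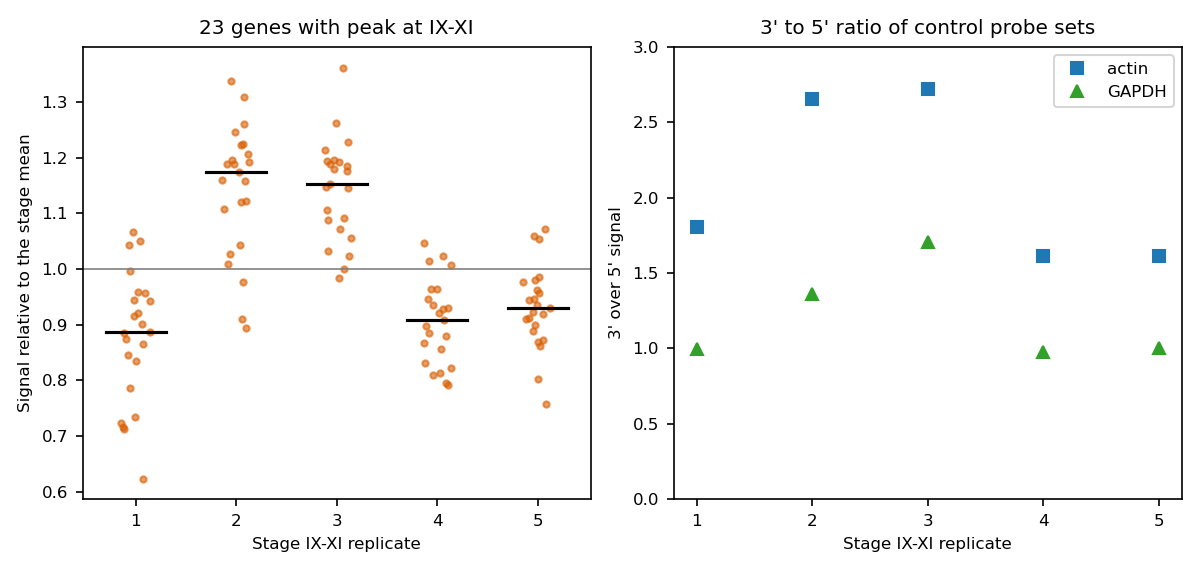
Left, signal of the 23 genes with peak at IX-XI in each of the 5 samples of that stage, relative to the gene's stage mean (points, genes; bars, medians); right, the 3' to 5' ratios for the actin and GAPDH control probe sets in the same samples. Replicates 2 and 3 have the higher gene medians, 1.17 and 1.15, and the higher actin ratios, 2.65 and 2.72.

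Among the isolated groups, the gap was narrowest to round spermatids in most genes. The peak stage mean was 3.00 to 6.54 times the highest isolated mean, with a median of 3.50. Round spermatids were the highest isolated group for 49 of the 52 genes, and their mean was 15.3% to 33.3% of the peak with a median of 28.2%. In 51 genes all round spermatid samples lay above all pachytene spermatocyte samples, which was so for 16.8% of all tested probe sets. The rule had used the means of both groups, so nothing is read from this share. The highest isolated mean was 200 or more for 32 genes. H2al2l, for example, had 1699, 2182, 1515 and 1495 in round spermatids, which shows plain signal there, and Ccdc179 had 1728, 2029, 1476 and 1432. In 52 of 52 genes all peak stage samples lay above all isolated cell samples, against 7.81% of all tested probe sets, but the rule had selected for this.

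The widest gaps were in Leng1, Syne3, Top1mt, Klc3 and Garin4. Leng1 had 56.2, 65.2, 57.1 and 35.9 in round spermatids, so its VIII mean of 351 was 6.54 times as high. Syne3 had 40.9, 40.2, 53.9 and 45.4 (5.81 times), and Top1mt had 134, 121, 140 and 118 (5.30 times). Klc3 had 222, 313, 218 and 217 (5.04 times), and Garin4 had 291, 341, 353 and 273 (4.76 times). In each of these 5 genes the isolated samples were well below the lowest peak sample, and round spermatids led the isolated groups.

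Next to the 3-fold line the choice was arbitrary. Just inside it were Smpx at 3.00, with 767, 895, 736 and 673 in round spermatids, Aktip at 3.05, with 280, 368, 240 and 207, and Tpm3 at 3.05, with 418, 501, 365 and 424. Just outside it were Ndufa5 at 2.99, a respiratory chain subunit, Ltn1 at 2.97, a ubiquitin ligase of stalled ribosomes, and Scoc at 2.97, a Golgi coiled-coil protein. Ndufa5 read 2275, 2492, 2452, 2510 and 2565 at VIIc.d and 793, 918, 865 and 715 in round spermatids. Ltn1 read 493, 747, 653, 495 and 594 at IX-XI and 203, 246, 175 and 178 in round spermatids. Scoc read 944, 1311, 1223, 1215 and 1029 at IX-XI and 382, 449, 340 and 370 in round spermatids. The spread of these samples is wider than the distance to the line.

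**Figure D4:**
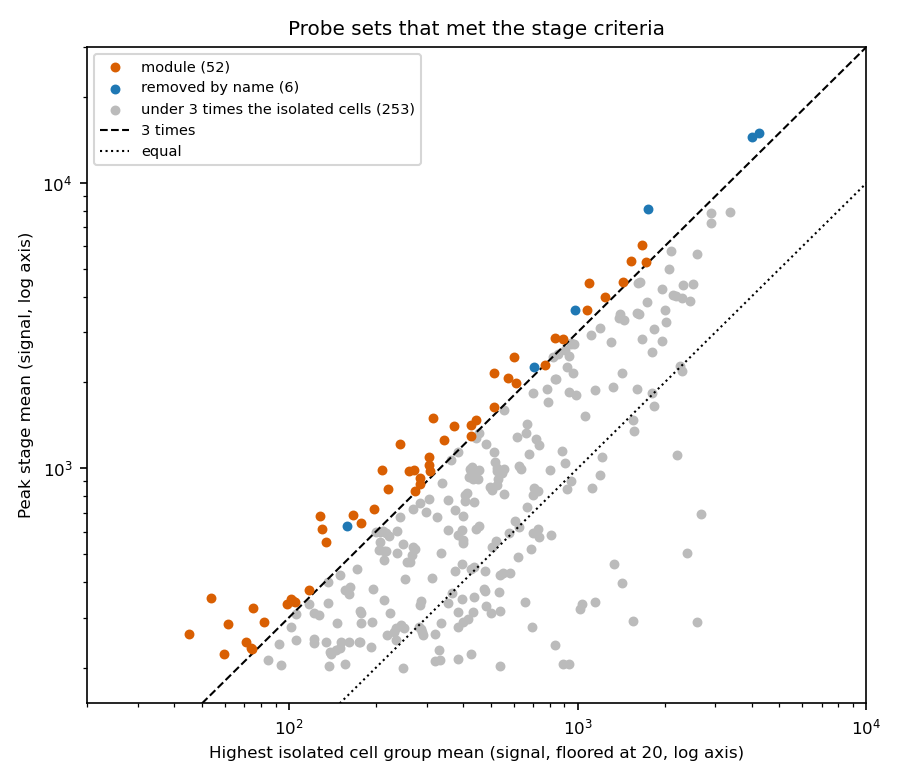
Peak stage mean (vertical, log axis) against the highest isolated cell mean (horizontal, floored at 20, log axis) for the 311 probe sets that met the stage criteria. The 52 genes (orange) lie above the dashed 3-fold line next to 6 genes left out by name (blue), with 253 others (grey) below it and no empty band between them.

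Epcam, Lhpp and Tafa5 had another isolated group on top. Epcam had 178 ± 22.4 in spermatogonia plus early spermatocytes and 172 ± 20.1 in Sertoli cells, against 135 ± 6.34 in round spermatids. Lhpp had 74.2 ± 5.83 in spermatogonia plus early spermatocytes, and Tafa5 had 59.8 ± 9.55 in Sertoli cells, against 48.0 ± 10.6 and 39.6 ± 22.8 in round spermatids. Both preparations carried markers of Leydig cells, with the summed signal of all 8 markers measured at 6542 to 10054 in spermatogonia plus early spermatocytes and 5831 to 7682 in Sertoli cells, against 285 to 387 in round spermatids and means of 286 to 376 at the stages. Spermatogonia plus early spermatocytes also carried macrophage and blood markers, 7 measured, with sums of 2334 to 3066 against stage means of 202 to 252. Sertoli cell markers, 11 measured, summed to 4633 to 6113 in that preparation, against stage means of 5488 to 8594 and 576 to 770 in round spermatids. Markers of spermatogonia and early spermatocytes, 8 measured, summed to 966 to 1285 there and to 1517 to 1903 in Sertoli cells. The stage means of this sum were 460 to 1324, highest at VIII, against a mean of 1113 in the spermatogonia plus early spermatocytes. Sertoli cells carried markers of peritubular myoid cells (6 measured, sums of 2289 to 5533 against stage means of 450 to 633) and of endothelial cells (5 measured, 578 to 1650 against 116 to 155). The part of all those cells in these 3 genes was not tested.

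Of the genes left out by name, among them the transition proteins and protamines that replace histones, 6 had met the same criteria. Their likeness to the 52 in the isolated cells was therefore fixed in advance, and nothing is read from it. The peak stage and round spermatid means were 15022 and 4255 for Tnp1, 14511 and 4024 for Tnp2, 8135 and 1753 for Prm2, 3583 and 980 for Oxct2b (a ketone body enzyme of germ cells), 628 and 158 for Gfra1 (a GDNF receptor) and 2265 and 706 for Rdh10 (a retinol dehydrogenase). Prm1, Prm3 and Hils1, with 18976 and 5389, 6620 and 2734, and 7916 and 3381, did not meet the rule in any case. Of 15 listed markers of elongating and late spermatids, 13 were measured and all were highest at IX-XI or, for Tekt5, at VIIc.d, 2.03 to 4.64 times the highest isolated mean. Their summed signal was 79827 to 176636 at IX-XI, 37135 to 48170 in round spermatids, 12770 to 18313 in pachytene spermatocytes, 1991 to 8515 in Sertoli cells and 139 to 202 in spermatogonia plus early spermatocytes. None of the 13 was at 0 in round spermatids, where the lowest was Tekt5 at 452. Round spermatids also had the high GAPDH ratio given above, though not a high actin ratio. Neither the part of RNA quality nor that of late spermatids left in the preparation was tested.

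Among the brighter of the other probe sets of these genes, the 3-fold gap was not seen again. Of the 52 genes, 21 had between them 41 other probe sets, of which 26 had no stage mean of 200. Among these dim ones only that of Prss37, also highest at IX-XI, was past 3 times, with 75.6 and a ratio of 3.78 to the floor. Of the 15 brighter ones, from 9 genes, 10 were highest at VIIc.d, VIII or IX-XI, but 0 were at least 3 times the highest isolated mean and 7 were higher in an isolated group than at any stage. The second Klc3 probe set also peaked late, at VIII, with 783 and a ratio to round spermatids of 2.57. For Eif4h the other probe set had 622 at XII, its highest stage, and 949 in Sertoli cells. For Prkar2a another had 180 at VIII, and 553 in Sertoli cells, and for Aarsd1 another had 609 at XIII-XIV and 788 in pachytene spermatocytes. The 11 other probe sets of Tpm3 had ratios of 0.387 to 2.38. Probe sets can read different transcripts of a gene, and those of Prss37, Tpm3 and Syne3 used here are of the types that match several sequences.

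Whole testis was the only preparation that played no part in choosing the genes, and it was compared with the mean of the 10 stages in a linear model on log2(signal + 5.11) over all 24046 tested probe sets. In whole testis, 3 of the 52 genes rose at an adjusted p under 0.05 and at least 2-fold and 0 fell, against 2.59% of all tested probe sets higher and 1.15% lower. At the adjusted p alone, 16 were higher and 1 lower, against 15.7% and 16.6%, and the median change of the 52 was 0.17, against -0.04 over all probe sets. These values depend on how the stages are averaged, and both ways are given.

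Prss37 had 2254, 1369, 2092, 1296 and 2123 in whole testis, against stage means of 40.7 to 4465 in tubules. The change was 1.63 ± 0.22 (SE) on the log2 scale (limma, Benjamini-Hochberg adjusted p = 2.63e-08). Garin4 had 347, 238, 309, 209 and 305 in whole testis, against 15.9 to 1496, a change of 1.18 ± 0.26 (limma, adjusted p = 3.94e-04). Rhbdd1 had 520, 410, 502, 279 and 517, against 24.0 to 1419, a change of 1.06 ± 0.15 (limma, adjusted p = 1.68e-07). In all 3 genes the lower values were those of replicates 2 and 4. With whole testis replicates 1, 3 and 5 alone, 5 genes were called higher among 811 probe sets, and with replicates 2 and 4 alone 1 was among 524, Prss37, while Garin4 (0.88) and Rhbdd1 (0.70) were no longer called. Rhbdd1 also fell short of 2-fold when replicate 1 (0.94) or 3 (0.99) of every group was left out, and without replicate 4 the count of genes called higher was 5.

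In the model, the 3 genes with the most negative change were Pip5kl1, Aarsd1 and LOC102548489. Pip5kl1 had 53.5, 68.6, 56.4, 49.8 and 28.9 in whole testis, against stage means of 29.0 to 246 (change -0.43 ± 0.18, limma adjusted p = 0.0641). Aarsd1 had 202, 222, 172, 253 and 226, against 148 to 613 (change -0.34 ± 0.12, limma adjusted p = 0.0254). LOC102548489 had 993, 1383, 944, 1841 and 1000, against 100.1 to 4514 (change -0.22 ± 0.20, limma adjusted p = 0.407). Aarsd1 passed the adjusted p, with under 2-fold, but did not without replicate 2 (limma adjusted p = 0.0624) or 3 (0.178) of every group, nor with whole testis samples 2 and 4 alone (0.574). Pip5kl1 passed it without replicate 2 (limma adjusted p = 0.0112) or with a pseudocount of 20 (0.022).

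A mean of log2 values over stages lies far below the arithmetic mean for a gene that is high at few stages, whereas whole testis mixes the tubules before RNA is measured. Taken as a ratio of arithmetic means, an alternative chosen after seeing the data and without a test, whole testis had a median of 0.787 times the tubule mean over the 52 genes, against 0.930 over all tested probe sets. The ratio was below 1 in 46 of the 52, against 59.8% of all. The stage samples in this ratio, and in the model, were those that the rule used to pick genes with a high peak, so nothing is read from these shares. On this scale Prss37 was at 0.23 (log2), Rhbdd1 at -0.12 and Garin4 at -0.54, so Rhbdd1 and Garin4 changed sign. The most negative were Syne3 at -1.21 ± 0.33, C5h6orf163 at -1.06 ± 0.10 and Mroh3 at -0.97 ± 0.38 (SE), while LOC102548489 was at -0.87, Pip5kl1 at -0.84 and Aarsd1 at -0.54. With each stage group weighted by the number of stages in its label, the median ratio was 0.865, against 0.931 over all tested probe sets, and 41 genes were below 1, against 60.4% of all. Prss37 was then at 0.17, Rhbdd1 at 0.42 and Garin4 at -0.067. For all 52 genes the whole testis mean lay between the lowest and the highest stage mean. The rule required a peak at least 4 times the lowest stage, so a wide range was fixed in advance. No share over all probe sets was taken, and nothing is read from this count. The signal of all 8 Leydig markers summed to 2167 to 2702 in whole testis, and its part in these ratios was not tested.

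**Figure D5:**
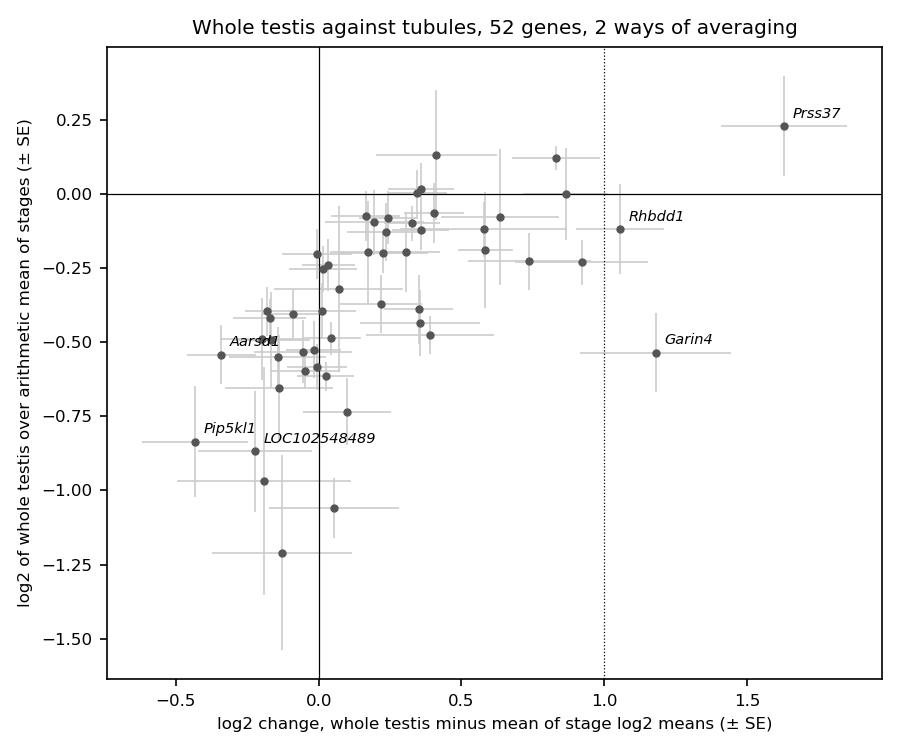
Change of each of the 52 genes in whole testis against tubules, from the model on log2 values (horizontal, ± SE) and from the ratio of arithmetic means (vertical, log2, ± SE); the dotted line marks 2-fold. Most points lie below the horizontal 0 line, and Garin4 and Rhbdd1 are positive on one scale and negative on the other.

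Whole testis was also set against the isolated cells. In 13 of the 52 genes all whole testis samples lay above all isolated cell samples, against 0.661% of all tested probe sets. The isolated values had been used to choose the genes, so nothing is read from this share. Against round spermatids alone, all whole testis samples were higher in 14 genes and lower in 1, against 23.0% and 16.0% of all tested probe sets. The upward share does not set the 52 apart. A low downward count was favoured by the rule, so nothing is read from it. The whole testis mean was above the round spermatid mean in 40 genes, against 53.0% of all tested probe sets, but the rule had selected for low round spermatid means.

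In the same model, the late stages VIIc.d, VIII and IX-XI were called higher than the other 7 stages in 52 of the 52 genes, against 2.27% of all tested probe sets, and tubules were called higher than isolated cells in 39 and lower in 0, against 7.54% and 4.6%. The samples of both contrasts were used by the rule, which favoured these counts, and nothing is read from either. The first count was 49 with a pseudocount of 20 and 49 with quantile normalization. With quantile normalization the split of all probe sets between tubules and isolated cells was 1426 higher and 1441 lower, against 1814 and 1107 without it. Lists of related pathways were counted in the contrast of late and other stages, where the median of all tested probe sets was 0.04 (log2). Of all tested probe sets, 2.27% were called higher in that contrast and 1.55% lower. Of the 9 chromatin packing genes measured, 3 were called higher at the late stages and 0 lower (median 0.60), with Tnp2 at 1.78 ± 0.14 and Prm2 at 1.66 ± 0.12 (log2 ± SE; limma adjusted p = 4.30e-18 and 1.83e-19). These 2 and Hils1, the third called, had met the stage criteria of the rule on the same samples. Nothing is therefore read from this count. Of 16 genes of the fibrous sheath, outer dense fibre and mitochondrial sheath, 2 were higher and 0 lower (median 0.21), Cimap1a at 1.31 ± 0.13 and the anchoring protein Akap3 at 1.02 ± 0.09. Of 19 axonemal genes tested, 2 were higher, the tektin Tekt5 at 2.25 ± 0.13 and Dynlt5, one of the 52, and 2 were lower, the dynein heavy chain Dnah17 at -1.86 ± 0.19 and the tektin Tekt4, with a median of -0.18. Of 20 acrosome and sperm surface genes, 2 were higher, Prss37 and Garin4, both chosen by the rule for a late peak, and 2 lower (median -0.09), the zona-binding Zpbp2 at -2.37 ± 0.10 and the hyaluronidase Spam1 at -1.38 ± 0.15.

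In the other lists, 2 of 12 spermatid kinases and phosphatases were higher (the tyrosine kinase Fer, 1.55 ± 0.08, and Prkar2a, one of the 52) and 0 lower (median -0.03), and 0 of 13 genes of mRNA storage were higher and 1 lower (the granule protein Tdrd7, -1.20 ± 0.04; median 0.03). Among 16 genes of energy metabolism 2 were higher and 0 lower (median 0.19), Oxct2b at 2.56 ± 0.15 and the lactate transporter Slc16a7 at 1.23 ± 0.09. Oxct2b had met the rule before it was left out by name, so nothing is read from its call. Among 6 ion channel and motility genes 0 were higher and 1 lower (median -0.54), the calcium channel gene Catsper2 at -1.04 ± 0.08. In the ubiquitin list 1 of 19 was higher (Asb9, 1.20 ± 0.07), among transcription regulators 1 of 9 (Gmcl1, 1.16 ± 0.06) and among genes of the Sertoli cell junction with spermatids 1 of 21 (Nectin2, 1.08 ± 0.13), with 0 lower in each and medians of 0.05, -0.33 and -0.05.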

How the data were processed

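RNA of 69 samples was measured on Affymetrix arrays, and the deposited values are intensity signals on a linear scale that the authors computed with MAS5, per the submitters' processing notes. In each array the trimmed mean was 100, and no detection calls were used here. All 31042 probe sets other than the 57 controls were used. Symbols came from the platform annotation, updated through RefSeq tables. Group means were floored at 20 for the choice of genes. The model was fitted with limma 3.58.1 in R 4.3.3 over all 69 samples and 15 groups on log2(signal + 5.11), the pseudocount being the 10th percentile of the table, for 24046 probe sets above 43.7 in at least 3 samples. A call needed a Benjamini-Hochberg adjusted p under 0.05 and a 2-fold change, two-sided. The protocol calls the stage samples independent; for the other groups the p-values measure the spread between samples, which may be technical. Samples of equal replicate number were not treated as pairs in the main model. Among stage samples of equal number, the mean correlation of deviations from the group means was 0.0213 to 0.139. The lowest pair was 0.0556 in replicate 1, 0.0039 in replicate 5 and below 0 in replicates 2 to 4. No baseline between samples of different number was taken, so whether equal numbers share an origin was not tested.

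The members and gene lists were chosen with earlier results of these data known, and roles were written after the members were seen. Every member is named. Values per sample are given for those with the highest peak means, the largest gaps to isolated cells, the genes next to the 3-fold line, those in the lists and the 3 largest and 3 smallest changes in whole testis. From a list, the genes with the largest changes are named. Alternatives covered the pseudocount, the filter, quantile normalization, the thresholds of the rule, left-out replicates, a replicate block, arithmetic means over stages and subsets of the whole testis samples.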

Additional observations from a re-analysis of the deposited data

Results flagged for a closer look

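In 9 of the 156 groups of 4 or 5 samples that were looked at over the 52 genes, 1 sample lay far from the others, where chance flags about 1 in 20 groups, or 8 here. Above the others of their group were Anapc10 in replicate 1 of VIIc.d (404, others 315 to 338), Cuzd1 in replicate 5 of VIII (453, others 299 to 340), Pcyt1a in replicate 1 of VIII (893, others 588 to 672) and Prcp in replicate 2 of VIII (396, others 323 to 338). The same held for Klc3 in replicate 2 of the round spermatids (313, others 217 to 222), and for Cdrt4 in replicate 4 (586, others 369 to 407) and Leng1 in replicate 2 (92.5, others 64.4 to 69.4) of whole testis. Below the others were Cc2d1a in replicate 1 of VIII (183, others 289 to 330) and Pip5kl1 in replicate 3 of the round spermatids (66.4, others 72.7 to 73.3).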

How the results depend on the processing

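The number of genes that met the rule was 141 at 2 times and 4 at 5 times the isolated cells, and 42 to 65 with replicates left out, against 52. Leaving out single replicates lost 11 of the 52 at least once, and quantile normalization gave 53 genes with 9 lost and 10 gained. With a pseudocount of 20, whole testis had 290 probe sets higher and 37 lower than tubules, with 1 of the 52 genes higher, against 622, 276 and 3. The late stages then had 347 higher and 216 lower, against 546 and 372, and tubules 1067 higher and 575 lower than isolated cells, against 1814 and 1107. The probe sets lower in whole testis numbered 614 with a pseudocount of 1, 83 with a filter at the 75th percentile, and 254 to 459 with a replicate left out, with 2 to 5 of the 52 genes higher. With whole testis samples 1, 3 and 5 alone, chosen after seeing the data, 811 probe sets were higher and 787 lower, with 5 of the 52 genes higher, and with samples 2 and 4 alone 524 were higher and 271 lower, with 1 of the 52 higher. LOC102548489 changed sign with samples 2 and 4 alone, at 0.20. As ratios of arithmetic means Rhbdd1 was at -0.12 and Garin4 at -0.54, and Garin4 was at -0.067 with stages weighted by number. These last changes come from the averaging, and the other causes were not tested.

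With the replicate number as a block, 623 probe sets were higher and 280 lower in whole testis, 545 and 369 at the late stages, and 1757 and 1069 in tubules against isolated cells, with 3 of the 52 genes higher in whole testis. The block changed no call among the 6 genes named for whole testis, and was not listed for the other named genes.

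Precision is limited by the 3 to 5 arrays in a group, and without detection calls signals near the floor have no order.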
